A study of Homo sapiens with 12 samples.

Results

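EGR1 and 9 further immediate early genes and close targets of the ERK kinase pathway (EGR2, EGR3, FOS, FOSB, FOSL1, JUN, JUNB, IER2 and DUSP6) were followed in the SBC5 cell line, an established line from human small cell lung cancer, after a PARP inhibitor, ionising radiation or both. They are 10 of 60605 genes in the table, each found once by its symbol, and they were chosen by measured values, because EGR1 was lower after each single treatment. The values used are those of EGR1 in olaparib versus vehicle and in radiation versus vehicle, and these 2 contrasts are given below as levels and differences without a test. All cells were labelled wild type. Vehicle cells received the solvent dimethyl sulfoxide (DMSO) and no radiation. The olaparib group received 1 µM of this inhibitor of PARP1 and PARP2 and no radiation. The radiation group received DMSO and 4 Gy of gamma rays. The combination group received 1 µM olaparib 2 hours before 4 Gy. Total RNA was collected 3 days after treatment, with 3 libraries per group. Whether the 3 libraries of a group stem from separate cultures is not stated, so p-values measure only the spread between these libraries.

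Immediate early genes are transcribed from a poised promoter within minutes of a signal, without new protein synthesis, and their mRNAs are usually short-lived. Growth factor receptors act on them through RAS, RAF, MEK and ERK, which phosphorylates ternary complex factors such as ELK1 that sit with serum response factor (SRF) on the CArG boxes of promoters such as those of EGR1 and FOS. Stress kinases of the JNK and p38 families act on JUN and on members of the ATF family. The EGR proteins are zinc finger transcription factors, FOS and JUN proteins pair to form the AP-1 factor, and DUSP6 is a phosphatase that removes the activating phosphates from ERK and is itself transcribed when ERK is active. The cells here were collected at day 3, long after the early wave for which these genes are named.

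Promoter windows show where the members differ in sequence. Windows ran from 250 bases before to 50 after the start site in RefSeq (GRCh38.p14). No window of EGR3 or FOSL1 was searched, so their promoters are not described. The search covered 10 windows from 8 of the 10 members. Those of EGR1 (lower in every treated group), DUSP6 (lower in the irradiated groups), JUN (higher in the irradiated groups) and FOS (no called change) are printed 5′ to 3′ on the strand of the gene, with matches to 4 motifs in capitals. The motifs, searched on both strands, were the CArG box, the AP-1 site TGANTCA, the CRE-like site TGACNTCA and the EGR site GCGNGGGCG, and no match overlapped another. The EGR1 window is chr5:138465229-138465528 on the plus strand, that of DUSP6 chr12:89352452-89352751 on the minus strand, that of JUN chr1:58783998-58784297 on the minus strand and that of FOS chr14:75278578-75278877 on the plus strand.
EGR1: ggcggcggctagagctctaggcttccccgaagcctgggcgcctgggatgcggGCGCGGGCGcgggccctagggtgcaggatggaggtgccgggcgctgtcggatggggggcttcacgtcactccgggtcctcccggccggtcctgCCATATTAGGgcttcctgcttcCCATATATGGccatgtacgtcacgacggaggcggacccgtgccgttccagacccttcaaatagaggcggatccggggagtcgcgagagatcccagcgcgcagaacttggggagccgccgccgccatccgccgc
DUSP6: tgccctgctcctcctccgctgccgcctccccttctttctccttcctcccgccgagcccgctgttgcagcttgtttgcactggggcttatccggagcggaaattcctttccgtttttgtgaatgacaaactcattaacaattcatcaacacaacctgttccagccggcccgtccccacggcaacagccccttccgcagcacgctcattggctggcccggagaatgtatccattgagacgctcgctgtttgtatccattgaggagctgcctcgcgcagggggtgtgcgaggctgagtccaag
JUN: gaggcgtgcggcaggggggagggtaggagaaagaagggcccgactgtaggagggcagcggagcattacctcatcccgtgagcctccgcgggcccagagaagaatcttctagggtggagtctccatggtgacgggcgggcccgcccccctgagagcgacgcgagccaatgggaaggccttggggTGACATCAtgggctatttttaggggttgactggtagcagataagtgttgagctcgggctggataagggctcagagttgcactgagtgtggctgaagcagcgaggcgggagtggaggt
FOS: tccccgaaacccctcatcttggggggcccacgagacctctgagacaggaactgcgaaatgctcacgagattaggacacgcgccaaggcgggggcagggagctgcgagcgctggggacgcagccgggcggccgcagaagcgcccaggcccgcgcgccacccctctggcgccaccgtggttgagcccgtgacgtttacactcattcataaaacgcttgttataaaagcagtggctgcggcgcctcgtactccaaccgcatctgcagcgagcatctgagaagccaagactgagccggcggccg
The EGR1 window held 2 CArG boxes, CCATATTAGG at -105 to -96 and CCATATATGG at -83 to -74 from the start site, and an EGR site at -198 to -190. A CArG box was found in 1.29% of all 35116 windows of this length, and the EGR site in 9.43%. The JUN window held TGACATCA at -67 to -60, a CRE-like match present in 7.72% of windows. The printed DUSP6 and FOS windows held none of the 4 motifs. Sequence beyond the windows was not searched, so sites farther upstream would be missed. The AP-1 pattern TGANTCA as written, present in 7.71% of all windows, was in none of the members' windows searched. Variants of it were not searched. Of the 3 EGR2 windows, one held a CArG box at -71 to -62 and another an EGR site from base 9 to 17 after the start. FOSB, JUNB and IER2 had no match. Such matches describe letters, and no binding was measured here.

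The 12 libraries held 14300459 to 38804959 estimated counts. In 3 of them, olaparib 2, olaparib 3 and radiation 3, the 404 olfactory receptor genes, normally silent outside sensory tissue, summed to a CPM (the count scaled to a library of 1e+06 counts) of 920.2 to 2097.8 against 354.7 to 501.3 in the other 9. These 3 libraries were set apart, which left 3 vehicle, 1 olaparib, 2 radiation and 3 combination libraries with 19441478 to 38804959 counts. Values below are CPM scaled over these 9 libraries unless stated, and a CPM is not corrected for gene length, so genes are not ranked against each other. In the 9 libraries YAP1, which marks 1 subtype of small cell lung cancer, stood at 84.0 to 124 CPM. The subtype factors NEUROD1 (mean 1.10 CPM) and POU2F3 (0.381) were low, as was the neuroendocrine factor INSM1 (0.0317). Of the neuroendocrine markers 4 of 9 reached a mean of 1 CPM (sum 68.0 to 90.5), with UCHL1 at 47.4 to 59.1 and SYP at 16.4 to 27.3. Of markers of other cells, 2 of 11 for leukocytes (sum 81.7 to 102 CPM, of which CD68 made 78.1 to 100, with CD3D at 0), 1 of 6 for endothelium (1.29 to 3.64) and 2 of 8 for airway epithelium (2.23 to 4.66, with KRT5 at 0) reached 1 CPM. The fibroblast list had 4 of 8 at that level. Its sum was 111 to 117 CPM in vehicle, 114 in olaparib, 91.2 to 108 after radiation, then 81.3 to 86.1 with both treatments, with PDGFRA at 63.8 to 97.8 and no marker at 0 throughout. Its part in the results was not tested.

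EGR1, the member on which the choice rests, stood at 45.4, 45.3 and 44.3 CPM in vehicle 1, 2 and 3. It was 21.3 CPM in the olaparib library, 12 and 12.5 in the 2 radiation libraries, and 13.9, 21.2 and 13.2 in combination 1, 2 and 3. The vehicle libraries lay close together and above every treated library, while combination 2 lay close to the olaparib library and away from its 2 partners. Against vehicle the EGR1 difference was -1.08 on the log2 scale (SE 0.194) in olaparib and -1.88 (SE 0.157) in radiation, which are ratios of means of 0.473 and 0.272 and are descriptions only. Over all genes 45.5% had the 1 olaparib library outside the vehicle range (21.1% below it), and 25.2% had radiation and vehicle libraries that did not overlap (13.5% lower). The order from high to low was vehicle, olaparib, combination and radiation, and the ranges of olaparib, combination and radiation were separated only by the gaps between 21.3 and 21.2 CPM and between 13.2 and 12.5 CPM.

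**Figure D1:**
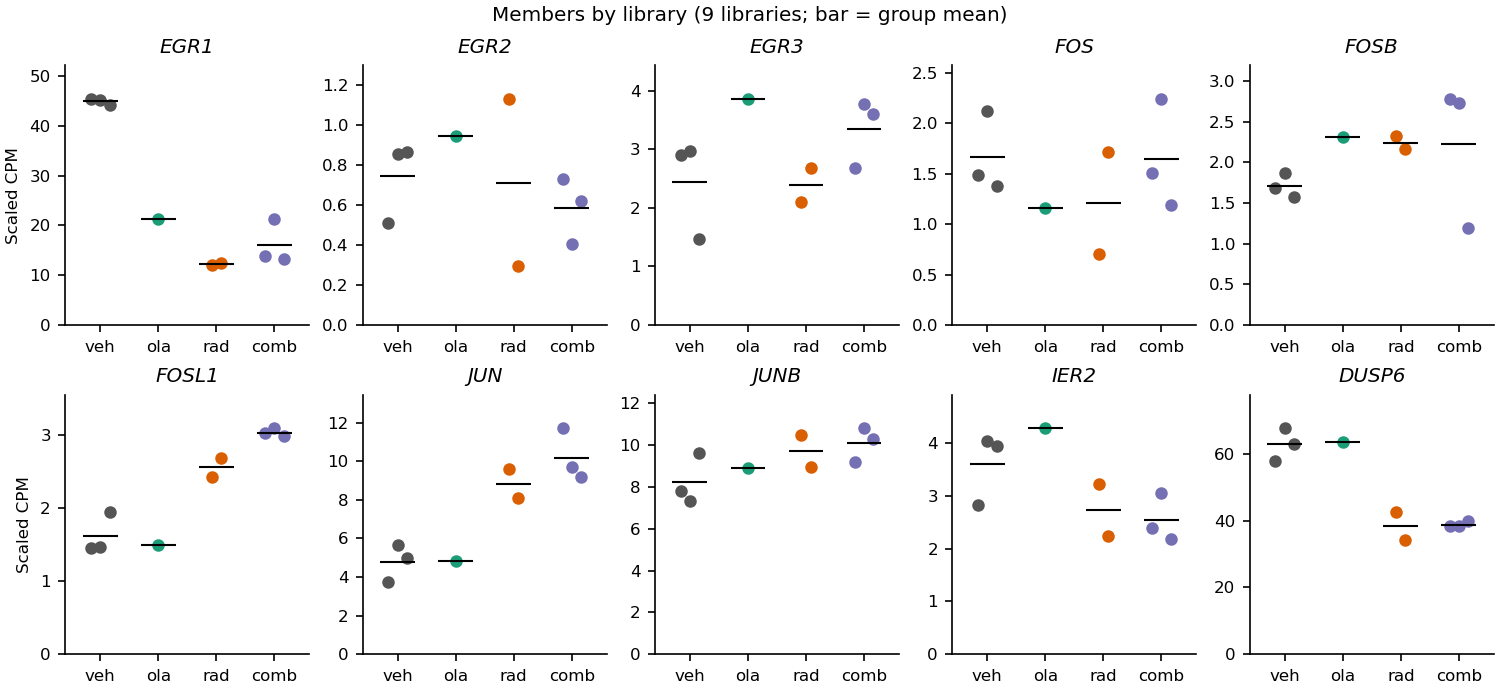
Scaled CPM (y axis, linear from 0, its own range for each gene) of the 10 members in vehicle (veh), olaparib (ola), radiation (rad) and combination (comb), 1 point per library and a bar at the group mean, for 9 libraries. EGR1 is at 44.3 to 45.4 in vehicle and at most 21.3 elsewhere, DUSP6 is lower and JUN higher in both irradiated groups, and FOS overlaps between vehicle and the combination.

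The combination against vehicle asks what both treatments together changed, in libraries of the combination that the choice of members did not use, although the vehicle libraries are shared with it. EGR1 had a mean of 45.0 CPM (SD 0.627, n = 3) in vehicle and of 16.1 (SD 4.41, n = 3) with both treatments, a fall by 1.48 on the log2 scale (SE 0.135, edgeR adjusted p = 1.06e-12), lower in 3 of 3 libraries. DUSP6 fell with it and JUN rose. By edgeR, 3 of the 10 members passed, 1 higher and 2 lower, where 4.8% of the 30967 genes tested passed, 1.53% higher and 3.26% lower. Scaling by library size only, in place of TMM, put the median log2 change over all genes at 0.22 instead of 0.02. The split over all genes turned from 475 higher and 1010 lower to 2275 higher and 319 lower, and the same 3 members passed in the same directions. The median log2 change was 0.14 over the members and 0.02 over all genes, with 5 members above and 5 below 0. When all 12 libraries entered the fit, 0 members passed (EGR1 -1.48, adjusted p = 0.548). With the olfactory receptor sum as a covariate in the 12, all 3 passed (EGR1 -1.38, adjusted p = 0.0078).

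Among the other EGR factors, neither passed. EGR2, a regulator of Schwann cell myelination and lymphocyte responses, was measured at 8 to 36 rounded counts per library in the 9, which is 0.51 to 0.864 CPM in vehicle, 0.946 in olaparib, 1.13 and 0.294 in radiation 1 and 2, and 0.403 to 0.731 in the combination. The 2 radiation libraries spanned the values of all other libraries. The combination against vehicle gave -0.35 (SE 0.737, 95% interval -1.80 to 1.09, edgeR adjusted p = 0.932), a wide interval that holds changes of either sign. EGR3, which is induced beside EGR1 in lymphocytes and neurons, was at 2.90, 2.98 and 1.47 CPM in vehicle, 3.86 in the olaparib library, 2.10 and 2.68 in radiation, then 2.68, 3.77 and 3.61 with both treatments. Combination and vehicle libraries overlapped, the olaparib library lay above all others, and the difference between combination and vehicle was 0.45 (SE 0.351, 95% interval -0.23 to 1.14, edgeR adjusted p = 0.665). The interval for EGR3 lies wholly above that for EGR1 (-1.75 to -1.22). Within a library, which needs no scaling, vehicle had 15.7, 15.2 and 30.1 EGR1 counts for each EGR3 count. The 6 treated libraries of the 9 had 3.66 to 5.70. After the single treatments these ratios rest in part on the choice of EGR1.

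JUN, the AP-1 subunit that the JNK kinases phosphorylate, was at 3.72, 5.64 and 4.96 CPM in vehicle and 4.81 in olaparib. It was 9.57 and 8.11 CPM after radiation, and both treatments gave 11.7, 9.68 and 9.17. Every irradiated library of the 9 lay above every unirradiated one. The share of all genes split by radiation in this way, in either direction, was not counted. In the combination against vehicle JUN rose by 1.09 (SE 0.223, edgeR adjusted p = 0.000471), from 4.77 CPM (SD 0.970, n = 3) to 10.2 (SD 1.33, n = 3). Radiation alone differed from vehicle by 0.89 (SE 0.243) and olaparib alone by 0.01 (SE 0.313), both as descriptions.

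JUNB, an AP-1 subunit that often opposes JUN, was at 7.31 to 9.63 CPM in vehicle, 8.91 in the olaparib library, 10.5 and 8.95 in radiation, then 9.21 to 10.8 with both. Combination and vehicle libraries overlapped, with a difference of 0.29 (SE 0.197, 95% interval -0.10 to 0.68, edgeR adjusted p = 0.582).

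The FOS proteins are the partners of JUN in AP-1. FOS itself, the classical immediate early gene, had 1.49, 2.12 and 1.38 CPM in vehicle, 1.16 in the olaparib library, 0.700 and 1.72 in radiation, then 1.51, 2.24 and 1.19 with both. Vehicle and combination covered the same range, and the difference was -0.01 (SE 0.487, 95% interval -0.97 to 0.94, edgeR adjusted p = 0.999), and it took the other sign (0.19) when scaled by library size. FOSB had 1.57 to 1.87 CPM in vehicle, 2.31 in the olaparib library, 2.33 and 2.16 in radiation, then 2.78, 2.73 and 1.19 with both, where the third library lay below every other (difference 0.39, SE 0.412, edgeR adjusted p = 0.809). FOSL1, which encodes FRA1 and is often raised in cells with lasting ERK activity, had 1.45, 1.46 and 1.95 CPM in vehicle and 1.5 in olaparib. FOSL1 was at 2.43 and 2.68 CPM after radiation, and both treatments gave 3.02, 3.09 and 2.99. Like JUN it was higher in every irradiated than in every unirradiated library of the 9, but in the set apart radiation 3 it was 1.42 CPM on the 12-library scale, below vehicle (1.58 to 2.13), where JUN was 7.18 (vehicle 4.05 to 6.15). At these counts the rise in the combination of 0.90 on the log2 scale (SE 0.386, 95% interval 0.15 to 1.66) did not pass (edgeR adjusted p = 0.219).

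DUSP6, the ERK phosphatase, was at 58.0, 67.7 and 62.9 CPM in vehicle and 63.7 in olaparib. It was 42.5 and 34.2 CPM after radiation, and both treatments gave 38.3, 38.3 and 39.9. Irradiated and unirradiated libraries of the 9 did not overlap, and the olaparib library lay inside the vehicle range. As for JUN, the share of all genes split in this way was not counted. In the combination DUSP6 fell by 0.70 against vehicle (SE 0.0979, edgeR adjusted p = 1.89e-07), from 62.9 CPM (SD 4.86, n = 3) to 38.8 (SD 0.908, n = 3). The difference between radiation and vehicle was -0.71 (SE 0.110) and between olaparib and vehicle 0.02 (SE 0.135), again as descriptions. IER2, a small nuclear protein of the immediate early class, had 2.82, 4.05 and 3.94 CPM in vehicle, 4.28 in the olaparib library, 3.23 and 2.24 in radiation, then 2.39, 3.05 and 2.19 with both. The olaparib library was the highest, combination and vehicle overlapped, and their difference was -0.51 (SE 0.334, 95% interval -1.16 to 0.15, edgeR adjusted p = 0.560).

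Counted by library ranges, 4 of the 10 members had combination and vehicle libraries that did not overlap, EGR1 and DUSP6 lower and JUN and FOSL1 higher, where 19.5% of all genes tested did not overlap, 9.15% higher and 10.4% lower. The choice of EGR1 enters this count through the shared vehicle libraries.

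**Figure D2:**
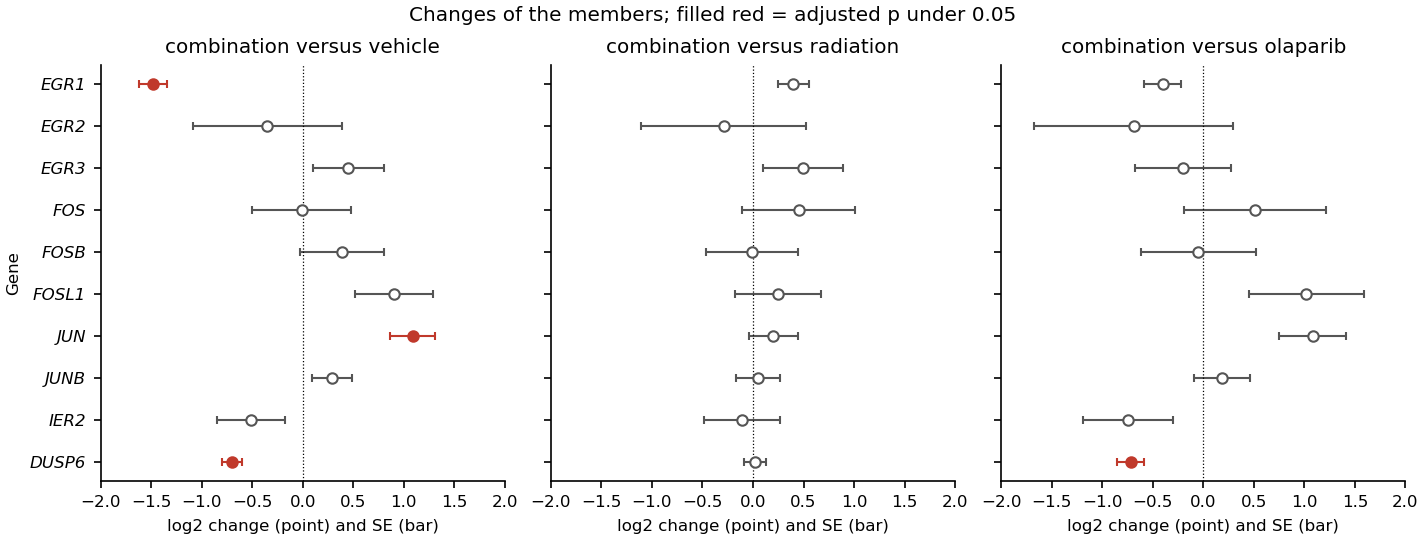
Log2 change of each member (x axis, point) with its standard error (bar) in combination versus vehicle, radiation and olaparib; filled red points passed an adjusted p of 0.05. EGR1, JUN and DUSP6 passed against vehicle, DUSP6 alone passed against olaparib and no member passed against radiation.

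The combination against radiation asks what olaparib added in irradiated cells. No member passed by edgeR or limma-voom (0 of 10), nor by DESeq2 among those to which it gave an adjusted p, where 0.568% of all genes passed by edgeR. With library size only the split over all genes turned from 44 higher and 132 lower to 142 higher and 58 lower. At an unadjusted p under 0.05 there was 1 member, EGR1, where 9.54% of all genes were under it. The mean of EGR1 after radiation was 12.2 CPM (SD 0.383, n = 2), against 16.1 (SD 4.41, n = 3) with both treatments, and 3 of 3 combination libraries were higher. The log2 difference was 0.40 (SE 0.154, 95% interval 0.09 to 0.70, edgeR adjusted p = 0.320). Without combination 2 it was 0.13, and this contrast shares its radiation libraries with the choice of EGR1. For DUSP6 the difference was 0.02 (95% interval -0.20 to 0.23) and for JUN 0.20 (-0.28 to 0.68). EGR1, EGR3 and FOSL1 had combination libraries above both radiation libraries, and over all genes 24.1% did not overlap (12.2% higher). For EGR3 the gap was below the rounding, with combination 1 and radiation 2 both at 2.68 CPM.

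The combination against olaparib asks what radiation added in inhibitor-treated cells. In the 9 libraries the olaparib group is 1 library, which the fit assumes to vary like the other groups. DUSP6 fell by 0.72 (SE 0.132, edgeR adjusted p = 0.000181), lower in 3 of 3 combination libraries, and was the 1 member of 10 to pass, where 1.95% of all genes passed. With library size only the split over all genes turned from 129 higher and 476 lower to 306 higher and 215 lower. With all 12 libraries the DUSP6 difference was -0.10 (adjusted p = 0.809). Olaparib 2 and 3 stood at 30.2 and 36.3 CPM on the 12-library scale against 69.7 in olaparib 1. JUN differed by 1.08 (SE 0.328, adjusted p = 0.0691), about the size of its rise against vehicle, and passed with library size only (1.21, adjusted p = 0.0336). The olaparib library is also one on which EGR1 was chosen, so its p-values here rest in part on the choice. EGR1 differed by -0.40 (SE 0.183, adjusted p = 0.417), by -0.66 without combination 2 (adjusted p = 0.0299), and by 0.27, the other sign, with all 12 libraries (adjusted p = 0.577).

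The ratio of 2 genes within a library is free of the scaling between libraries. Vehicle 1, 2 and 3 had 12.2, 8.04 and 8.93 EGR1 counts for each JUN count. The olaparib library had 4.43, 1.25 and 1.54 were found after radiation, and the combination libraries 1.19, 2.19 and 1.44. The vehicle libraries thus lay above all others and the olaparib library between them and the irradiated ones. The set apart libraries gave 1.12 in olaparib 2, 5.44 in olaparib 3 and 1.78 in radiation 3. For EGR1 to DUSP6 the ratio was 0.669 to 0.783 in vehicle, 0.334 in the olaparib library, 0.282 and 0.366 after radiation, then 0.363, 0.553 and 0.331 with both treatments. The set apart libraries had 0.230, 0.361 and 0.347. EGR1 was thus lower relative to DUSP6 in each of the 9 treated libraries than in any vehicle library. EGR1 was chosen for low values after each single treatment, so its ratios in those groups rest in part on the choice. JUN to DUSP6 was 0.0642 to 0.0832 in vehicle and 0.0755 in the olaparib library, against 0.225 and 0.237 after radiation, then 0.230 to 0.305 with both.

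**Figure D3:**
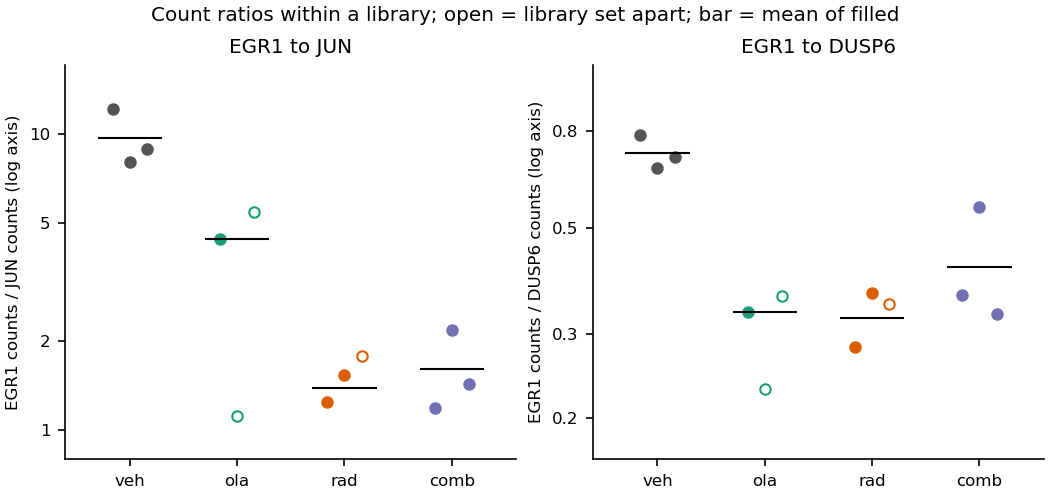
EGR1 counts divided by JUN counts and by DUSP6 counts in each of the 12 libraries (log axes), with the 3 libraries set apart as open points and a bar at the mean of the filled points. Vehicle lies at 8.04 to 12.2 for EGR1 to JUN and 0.669 to 0.783 for EGR1 to DUSP6, above every treated library in both panels. EGR1 was chosen for low values after each single treatment.

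In the 3 libraries set apart the members behaved unevenly. On the scale of all 12 libraries EGR1 was at 6.95 and 13.1 CPM in olaparib 2 and 3, and 12.8 in the third radiation library, where vehicle had 48.4 to 49.5. With them, 9 of 9 treated libraries lay below every vehicle library for EGR1 and 8 of 9 for DUSP6, and 7 of 9 lay above for JUN. FOSB, in contrast, was above every vehicle library in 8 of 9, and the highest FOSB values, 5.75 and 7.70 CPM, were in olaparib 2 and 3. Such counts were not taken over all genes. In the tested libraries alone, 45.5% of all genes had olaparib, 25.2% radiation and 19.5% combination libraries wholly outside the vehicle range. The count for EGR1 includes the olaparib and radiation groups, on which EGR1 was chosen. EGR3 reached 8.44 and 8.08 CPM in olaparib 2 and 3, and 5.50 in the third radiation library, against 1.61 to 3.25 in vehicle. EGR2 reached 2.65 and 2.92 CPM in olaparib 2 and 3 against 0.554 to 0.943. These are also the libraries with the high olfactory receptor sums, and the part of that background in the values was not tested.

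**Figure D4:**
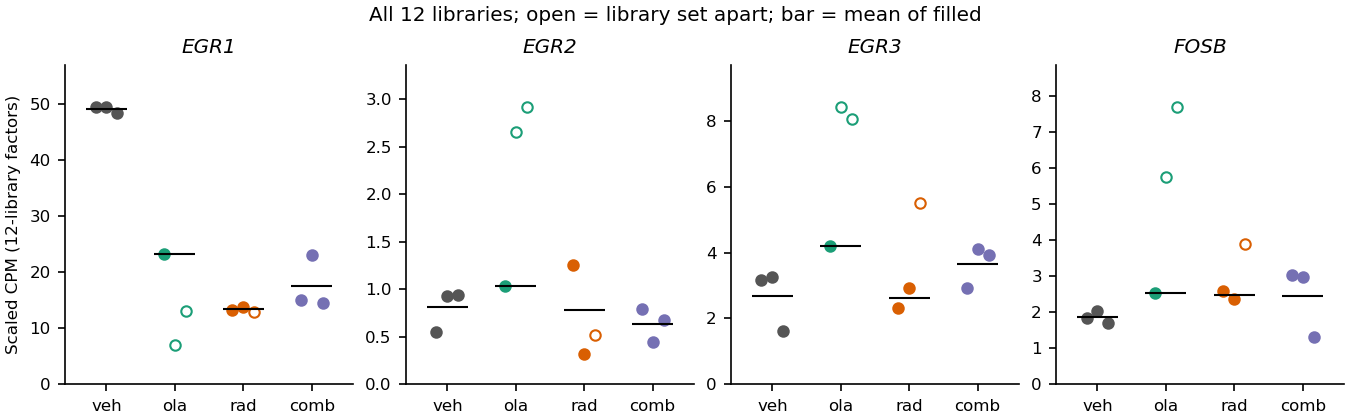
Scaled CPM (linear axes from 0, factors from all 12 libraries) of EGR1, EGR2, EGR3 and FOSB, with the 3 libraries set apart as open points and a bar at the mean of the filled points. EGR1 is at 6.95 to 13.1 in the open points, below vehicle, while EGR3 and FOSB are above vehicle there.

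The wider pathway was counted in 8 lists of 133 genes written down for this purpose, some genes standing in 2 lists. The lists were chosen with earlier results of these data known, so their counts may rest in part on that choice. Counts are of genes that passed edgeR in the combination against vehicle, beside 1.53% higher and 3.26% lower over all genes. Of the other immediate early transcription factors 18 of 19 were tested, and 3 were higher and 3 lower (median 0.00, all genes 0.02). ATF3, a stress-induced partner of JUN, rose by 1.79 (SE 0.274, adjusted p = 1.53e-06), from 1.88, 1.87 and 3.52 CPM in vehicle to 7.99, 9.95 and 7.27 in the combination, with 3.15 in the olaparib library and 6.90 and 5.83 after radiation. Among the 9, the ATF3 libraries of the irradiated groups all lay above the unirradiated ones, the same split as for JUN, FOSL1, NR4A3 and KLF10. The share of all genes with this split was not counted. ATF3, NR4A3 and KLF10 are named because they passed in a tested comparison, so their split rests in part on that choice. The orphan nuclear receptor NR4A3 rose by 1.04 (SE 0.247) and the TGF-beta induced repressor KLF10 by 0.54 (SE 0.081). MAFF, a small MAF protein, fell by 0.95 (SE 0.199) and MYC by 0.49 (SE 0.139). KLF6, named because it completes the count and not by the naming rule, fell by 0.48 (SE 0.0783). MYC did not pass when scaled by library size (-0.29, adjusted p = 0.223) or in limma-voom (adjusted p = 0.0714). Nor did MYC pass without vehicle 1, vehicle 3 or combination 3 (adjusted p = 0.0932 to 0.128).

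Of 24 tested among 27 immediate early signalling and secreted genes, 0 were higher and 3 lower (median 0.14). The matricellular protein CCN2 fell by 0.81 (SE 0.071, adjusted p = 1.21e-14), from 324, 324 and 336 CPM in vehicle to 193, 181 and 186, with 271 in olaparib and 217 and 179 in radiation. Its relative CCN1 fell by 0.32 (SE 0.0819) and the kinase PLK2 by 0.40 (SE 0.068). CCN1 did not pass when scaled by library size (-0.12, adjusted p = 0.431).

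Of the genes of ERK feedback and output, 19 of 20 were tested, 0 higher and 3 lower (median 0.03). The ETS factor ETV1 fell by 0.93 (SE 0.141, adjusted p = 1.3e-06), from 25.8, 23.6 and 27.0 CPM to 12.8, 13.3 and 14.1, with 24.9 in olaparib and 17.4 and 15.6 in radiation. As with DUSP6, the olaparib library lay in the vehicle range and the irradiated libraries below it, a split not counted over all genes. SPRY1, an inhibitor of receptor signalling, fell by 0.40 (SE 0.127, adjusted p = 0.0493), and MYC was the remaining gene. SPRY1 did not pass when scaled by library size (-0.20, adjusted p = 0.417) or DESeq2's size factors (0.0578), in limma-voom (0.104) or with the compared groups alone (0.055). Nor did SPRY1 pass without any 1 of vehicle 1, 2 or 3, olaparib 1 and combination 2 or 3 (adjusted p = 0.0537 to 0.289). In the ERK cascade itself 0 of 25 were higher and 1 lower, the adaptor SHC1 (-0.35, SE 0.0968, adjusted p = 0.0154). SHC1 did not pass when scaled by library size (-0.15, adjusted p = 0.419) or in limma-voom (0.0685). Nor did SHC1 pass without vehicle 2, vehicle 3, combination 1 or combination 2 (adjusted p = 0.0520 to 0.137). In the JNK and p38 cascades 0 of 17 passed (median 0.04), and 0 of 15 among SRF, ELK1 and other activators of immediate early promoters (median 0.00).

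Of 11 tested AP-1 partners, 1 was higher and 2 lower (median 0.33). They were ATF3, MAFF and ATF2, a substrate of p38 and JNK (-0.25, SE 0.0774, adjusted p = 0.045). ATF2 did not pass when scaled by library size (-0.05, adjusted p = 0.834) or DESeq2's size factors (0.0635), or without a count filter (0.0608). It did not pass in limma-voom (0.0832) or with the replicate block (0.0648). Nor did ATF2 pass without any 1 of vehicle 1 or 3, olaparib 1 and combination 1, 2 or 3 (adjusted p = 0.0505 to 0.246). Of the 6 EGR partners and corepressors 0 were higher and 2 lower (median -0.23). The EGR corepressor NAB1 fell by 0.40 (SE 0.0875, adjusted p = 0.000994) and SP1, which binds GC-rich promoters, by 0.29 (SE 0.0738, adjusted p = 0.00664). Neither passed when scaled by library size (-0.20, adjusted p = 0.140, and -0.09, adjusted p = 0.540), and SP1 did not pass without vehicle 3 (-0.21, adjusted p = 0.170). With all 12 libraries none of the 14 genes named by the rule against vehicle passed, at the same log2 changes (ATF3 1.79, ETV1 -0.93, CCN2 -0.81, KLF10 0.54). With the olfactory receptor sum as a covariate 6 of the 14 passed (ETV1, CCN2, NR4A3, KLF10, ATF3 and MAFF) and 8 did not, among them PLK2 (adjusted p = 0.0825) and NAB1 (0.0721).

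**Figure D5:**
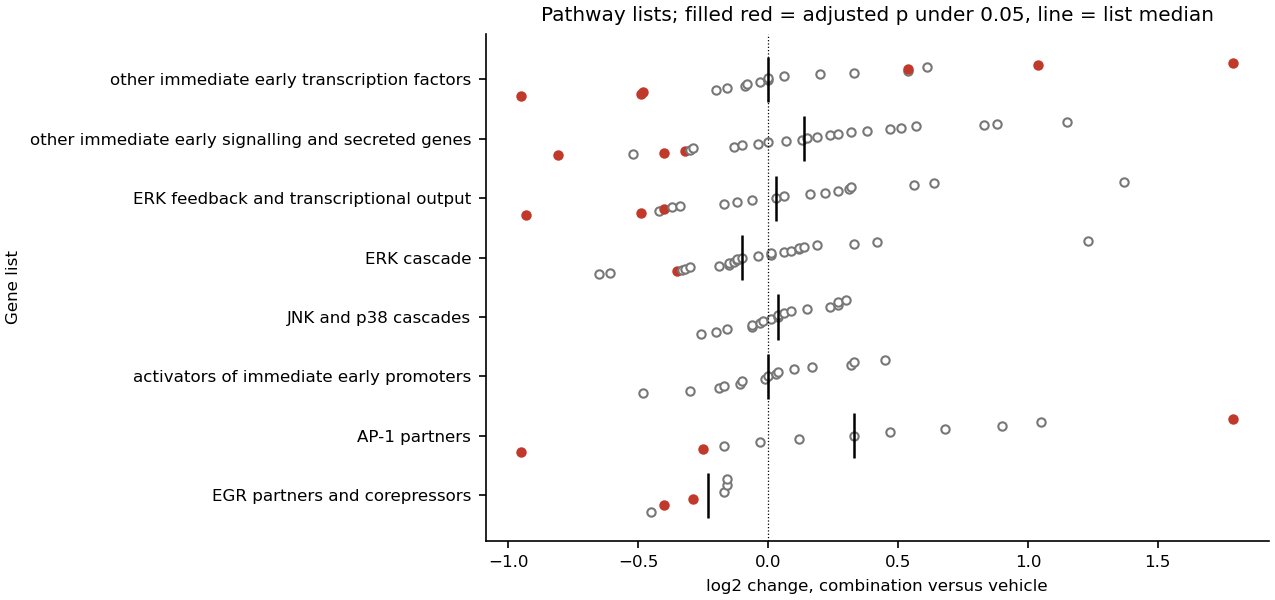
Log2 change in combination versus vehicle (x axis) of every tested gene in the 8 pathway lists (rows), filled red where the adjusted p is under 0.05, with a line at the list median. The called genes lie on both sides of 0 in the transcription factor and AP-1 lists and below 0 in the signalling, ERK output, ERK cascade and EGR partner lists.

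Against radiation, 1 listed gene was higher in the combination, MRTFA, a coactivator of SRF (0.96, SE 0.242, adjusted p = 0.0375), and 1 lower, PLK2 (-0.34, SE 0.0754, adjusted p = 0.0095). In this comparison 0.142% of all genes were higher and 0.426% lower. MRTFA was at 7.53, 9.88 and 7.94 CPM in vehicle, 5.17 and 5.76 in radiation then 8.23, 11.6 and 12 with both treatments. MRTFA did not pass in limma-voom (adjusted p = 0.144), with the compared groups alone (0.110) or the replicate block (0.0665), nor without any 1 of vehicle 2, olaparib 1, radiation 1 or 2 and combination 2 or 3 (adjusted p = 0.0531 to 0.463). PLK2 did not pass when scaled by library size (-0.25, adjusted p = 0.0832), with the compared groups alone (0.101), without radiation 1 (-0.17, adjusted p = 0.756) or without combination 3 (adjusted p = 0.0654). Neither passed with all 12 libraries, with or without the covariate. Against olaparib ATF3 (1.41) and KLF10 (0.43) were higher, and CCN2 (-0.54), PLK2 (-0.54), ETV1 (-0.89) and SHC1 (-0.59) lower, where 0.417% of all genes were higher and 1.54% lower. ATF3 did not pass here in limma-voom (adjusted p = 0.0522), with the replicate block (0.115) or without combination 1 (0.0650) or 2 (0.145), and KLF10 did not without combination 3 (0.110). With all 12 libraries none of these 6 passed, and CCN2 (0.12), PLK2 (0.18) and SHC1 (0.09) took the other sign. With the covariate KLF10 and ETV1 passed, and CCN2 (adjusted p = 0.101), PLK2 (0.0953), SHC1 (0.0613) and ATF3 (0.0573) did not.

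By a rule of likeness, the 5 genes outside the members whose log2 CPM ran closest to that of EGR1 over the 9 libraries, among 17977 genes with a mean of at least 1 CPM, were the mitochondrial complex I gene MT-ND1 (Pearson r 0.976), TTC28 (0.972), the SOX factor SOX12 (0.970), the homeobox factor PBX2 (0.951) and DCAKD (0.951). The libraries fall into treatment groups, so these values describe a largely shared pattern over groups. MT-ND1, unlike EGR1, was not lower in radiation than in the combination. None of the 5 differed between groups by as large a ratio as EGR1, with SOX12 going from 21.3 CPM in vehicle to 18.2 (olaparib), 15.0 (radiation) and 16.3 (combination), and MT-ND1 from 2030 to 1680, 1410 and 1400. Among the members DUSP6 was closest to EGR1 (0.834), and JUN (-0.813) and FOSL1 (-0.758) ran opposite to it.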

How the data were processed

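RNA was sequenced from 12 libraries of SBC5 cells, and the authors deposited estimated counts per Ensembl gene ID, 60649 rows. Per the submitters' processing notes, the authors' tools for these estimated counts and what followed were kallisto 0.46.1 and DESeq2, with no role given. The reference was not given in the sources used here. The 44 rows of pseudoautosomal Y copies were added to their X counterparts and the values were rounded (68.8% were whole to within 1e-06). A gene name table matched 60463 of 60605 IDs. The labels put 3 libraries in each group. Libraries whose olfactory receptor sum was over 1.5 times the median of the 12 were set apart.

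In R 4.3.3, edgeR 4.0.16 was run on the 9 remaining libraries with its default count filter (30967 genes), TMM factors, 1 mean per group and robust quasi-likelihood F-tests, with Benjamini-Hochberg adjustment over all genes and a threshold of 0.05. All adjusted p-values are from this fit unless another is named. Standard errors are the log2 change over the square root of F, and 95% intervals are the change plus or minus 1.96 SE. The alternatives were all 12 libraries, the 12 with log2 of the olfactory receptor sum as a covariate, DESeq2's size factors, library size only, a stricter count filter (3 or more libraries reaching 1 CPM), none at all, limma-voom (limma 3.58.1), DESeq2 1.42.0, fits of only the 2 groups compared, a replicate block and each library left out. The method was run on counts simulated for the 9 libraries, with known changes set in the combination only. That simulation held no library with a high olfactory receptor sum and no general shift between groups, so it does not test how these affect the calls. The members and lists were chosen with earlier results of these data known. Named were all members, up to 4 called genes of largest change per list and tested comparison, and the 5 genes most like EGR1 (Pearson r of log2(CPM + 1)).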

Additional observations from a re-analysis of the deposited data

Results flagged for a closer look

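Values above all 9 tested libraries were found for 3 members. In the libraries set apart, EGR2 stood at 2.65 CPM in olaparib 2 and 2.92 in olaparib 3 (12-library scale), above the highest of the 9 tested libraries (1.25). EGR3 stood at 8.44, 8.08 and 5.50 CPM in olaparib 2, olaparib 3 and radiation 3, against at most 4.22 in the 9. FOSB stood at 5.75, 7.70 and 3.88 CPM in the same libraries, against at most 3.03. Over all genes the median log2 change in olaparib versus vehicle was 0.39 with all 12 libraries, against -0.02 in the 9. The share of all genes above the 9 in these libraries was not counted, and the part of the background was not tested.

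The difference that olaparib made to EGR1 pointed in opposite directions without and with radiation. It was -1.08 on the log2 scale in olaparib versus vehicle, where the 1 olaparib library of the 9 lay below every vehicle library, and 0.40 in combination versus radiation, where every combination library lay above both radiation libraries. The second did not pass (edgeR adjusted p = 0.320) and was 0.13 without combination 2. The difference between the 2 was not tested. EGR1 was chosen for low values in olaparib and in radiation, so both values rest in part on the choice.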

How the results depend on the processing

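With all 12 libraries and no covariate, 0 members passed in combination versus vehicle (EGR1 -1.48) and 0 in combination versus olaparib, where EGR1 took the other sign (0.27), as did CCN2 (0.12), PLK2 (0.18) and SHC1 (0.09). In olaparib versus vehicle, 7 members were then below 0 in place of 3, and EGR1 was at -1.76. With the olfactory receptor sum as a covariate in the 12, 3 passed against vehicle and 1 against olaparib, as in the 9. In the other 8 alternatives the number of members passing against vehicle stayed at 3, and no alternative gave a call against radiation. Against olaparib 2 passed with library size only. The cause was not tested. Members that did not pass changed sign with library size only (FOS against vehicle 0.19, FOSB 0.08 against radiation and 0.08 against olaparib) and with the replicate block (FOSB 0.14 against radiation and 0.10 against olaparib, JUNB -0.01 against radiation). Replicate numbers did not pair the libraries (correlations of deviations from group means -0.0774 to 0.0204 over 7 same-numbered pairs), and the replicate block left 3, 0 and 1 members passing.

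With each library left out in turn, 3 and 0 members passed against vehicle and radiation and 1 to 2 against olaparib, where EGR1 ranged from -0.66 to -0.29. In olaparib versus vehicle 2 to 5 members were below 0. In the tested comparisons, ranges that crossed 0 were FOS -0.32 to 0.20 against vehicle, FOSB -0.24 to 0.25 against olaparib and, against radiation, EGR2 -0.98 to 0.98, FOSB -0.20 to 0.28, IER2 -0.37 to 0.18, FOS -0.06 to 1.2, DUSP6 -0.16 to 0.18 and JUNB -0.09 to 0.17. Among the untested ones they were EGR2 -1.33 to 0.62, FOS -1.23 to 0.05 and EGR3 -0.30 to 0.13 in radiation versus vehicle, and DUSP6 -0.03 to 0.08, FOSL1 -0.19 to 0.04 and JUN -0.14 to 0.14 in olaparib versus vehicle.

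Over all genes, the 1485 calls against vehicle became 1 with all 12 libraries, 829 with the covariate and 2594 with library size only. The 605 against olaparib became 3 and 373 with the first 2 of these. The 176 against radiation became 0 with all 12, 28 with the covariate, 418 with DESeq2, 278 without a count filter and 64 with the compared groups alone, and 38 to 447 with a library left out (38 without radiation 1, 447 without radiation 2). DESeq2 gave no adjusted p for 23 of the changes followed here, and the stricter filter left EGR2 untested. At 8 to 36 counts per library for EGR2, and under 100 for FOS, FOSB and FOSL1, depth limits what could be detected.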
